A study of Caenorhabditis elegans with 40 samples.

Results

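The sites at which less HSF-1 was recovered after HSF-1 had been removed from the germline of unstressed worms were described from the authors' peak lists. A site is 1 summit, the base with the highest ChIP-seq signal within a peak. The members are all distinct sites of the 2 lists in which the authors recorded a loss on germline depletion at 20 °C. There were 421 of them among the 500 summits deposited for the ethanol controls at that temperature (84.2%, exact binomial 95% interval 80.7 to 87.3%, covering the sampling of summits only). Of these, 242 (48.4% of the 500) were also listed as lost when HSF-1 was removed from the soma (the shared list) and 179 (35.8%) were not (the germline-only list). The other 79 summits comprised 47 listed for soma depletion alone and 32 in no list, and 57.8% of the 500 were listed for soma depletion in all. Over all heat shock and 20 °C lists and summit files, 941 sites were deposited.

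HSF-1 is the heat shock transcription factor of Caenorhabditis elegans. In all animals it binds short repeated elements near chaperone genes and switches them on when proteins misfold, and in worms it also acts during development and in the germline in the absence of stress. In the auxin-inducible degron system, a plant F-box protein, TIR1, marks any protein that carries the degron tag for destruction once auxin is given, so the tissue that makes TIR1 sets where the protein is lost.

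The germline strain, JTL621, carried hsf-1::aid::gfp on chromosome I, unc-119(ed3) on chromosome III, and the insertion ieSi38 on chromosome IV. In ieSi38 the sun-1 promoter and 3′ UTR express TIR1::mRuby in the germline, beside the rescue gene Cbr-unc-119(+). Control and depleted animals were the same strain and both carried every one of these alleles. Young adults grown at 20 °C from synchronised larvae spent 2 h on plates with ethanol (control, 2 libraries) or auxin (depletion, 2 libraries) and were collected without heat shock. Chromatin of whole animals was fixed in 2% formaldehyde for 15 min, sheared to 200 to 600 bp and precipitated with an antibody against GFP. The soma comparison used for contrast was made the same way, with 2 control and 2 depletion libraries, in the strain JTL611. That strain makes TIR1 in the soma. No measurement of HSF-1 protein was among the files, so the extent of depletion was not checked. Because whole animals were used, the HSF-1 signal of a site is a sum over germline and soma, and fewer bound nuclei and less HSF-1 per nucleus cannot be told apart.

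Each site carried up to 3 scores made by the authors. The peak score belongs to a peak in an ethanol control, and the peak names are those of the soma strain JTL611. It was therefore taken as the score of the soma strain's control, from other libraries than the germline score. Every correlation or ratio of germline score and peak score below thus spans both strains. The germline score and the soma score belong to the regions in which the signal was higher with ethanol than with auxin in each strain, and their columns are headed as a negative log p-value with no base given. A higher score therefore marks a more certain loss. It is not the fraction of HSF-1 lost, and it depends on the number of reads at a site. No value per library was among the files, so no spread between replicates can be given and the depth is unknown. Scores of different comparisons are set side by side below without a common scale.

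Loss on germline depletion was recorded at every one of the stronger sites. The peak score of the members had a median of 669 (38.1 to 234251), against 91.8 (23.7 to 1829) for the other 79 summits. All 129 summits with a peak score above 1829, the highest among the other summits, were members. When the 500 summits were divided into quartiles by peak score, members made up 73 of 126 in the lowest quartile (57.9%), 103 of 124 in the second (83.1%), 120 of 125 in the third (96%) and 125 of 125 in the highest. The kind of member changed across the same quartiles. Shared sites numbered 12, 28, 80 and 122 from the lowest quartile to the highest, and germline-only sites 61, 75, 40 and 3. The germline-only list thus lay mainly among the weaker sites, and 136 of its 179 members were below the median of all summits. Whether a weak site failed to enter the soma list because its signal was low was not tested.

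**Figure D1:**
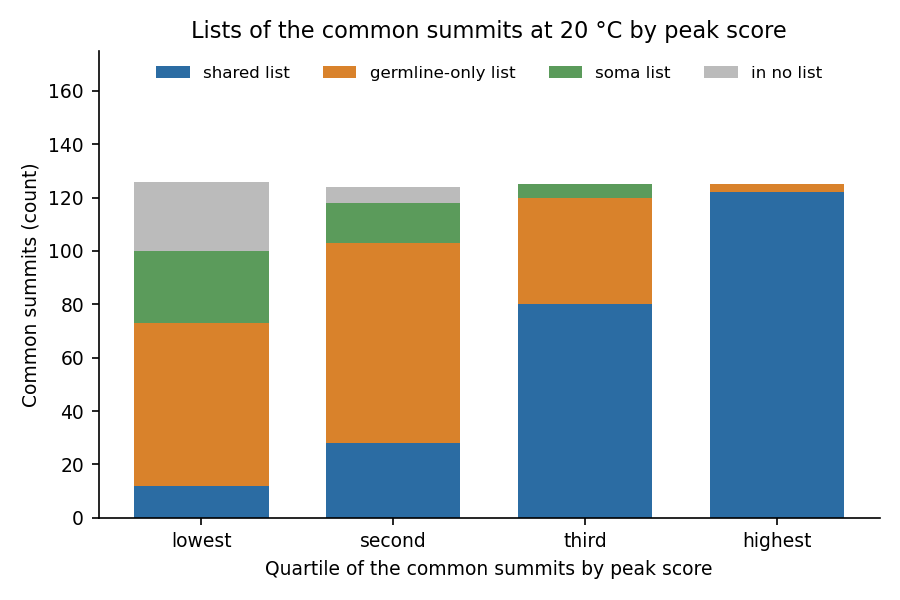
Number of summits at 20 °C (vertical axis) in each quartile of the peak score (horizontal axis), divided by the authors' lists. Sites lost on germline depletion, the shared and germline-only lists together, rise from 73 of 126 to 125 of 125, and germline-only sites fall to 3 in the highest quartile.

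The germline score followed the peak score. It had a median of 157 over the 421 members and ran from 12.0 to 17407.5. In quartiles of the members by peak score, its median was 46.3, 117, 252 and 1260. Across the members the Spearman correlation of the 2 scores was 0.832 (n = 421 sites), given as a description because both scores rise with the number of reads at a site and sites in 1 region share a score. The relation was looser among the 153 members within 1000 bp of the start of a protein-coding gene (0.635) than over all members. The germline score per unit of peak score fell from a median of 0.448 in the lowest quartile of the members to 0.134 in the highest.

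**Figure D2:**
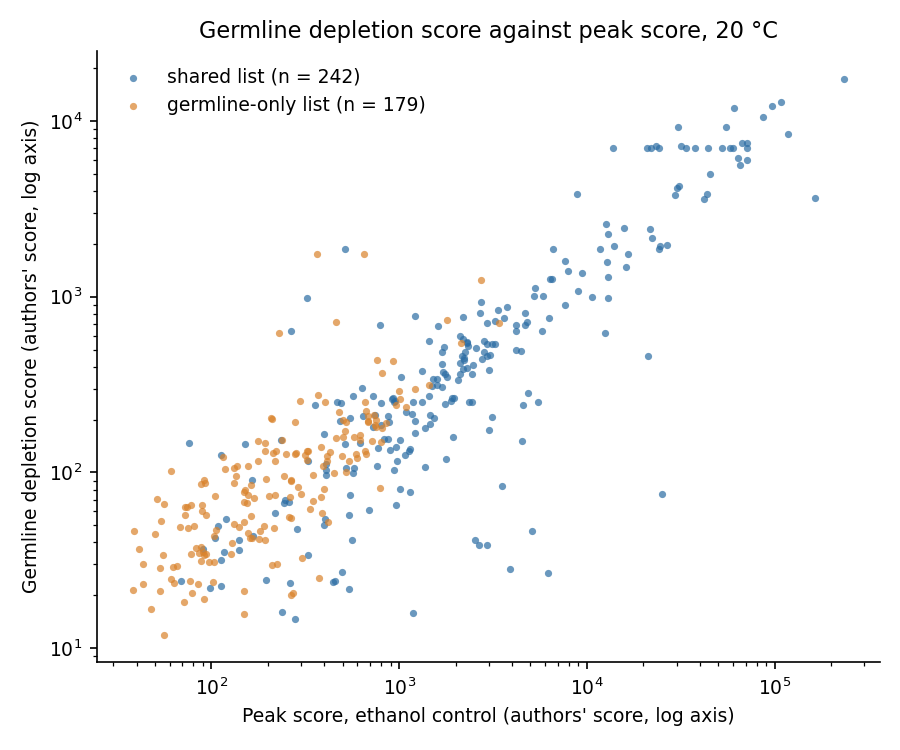
Germline score (vertical, log axis) against peak score (horizontal, log axis) of the 421 members, 1 point per summit, coloured by list. The points follow a band with a Spearman correlation of 0.832, and a group of shared sites with peak scores above 1000 lies far below it, with germline scores under 100.

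The 10 highest germline scores belonged to shared sites, and 8 of them had no gene start within 1000 bp. The highest of all, 17407.5, was in an intron of tir-1 on chromosome III (region 3897058 to 3897736, summit 3897311), 4314 bp downstream of the nearest start. The worm gene tir-1 encodes a TIR-domain adaptor of innate immune signalling and is unrelated to the TIR1 transgene. Its soma score was 362. Next came an intergenic site on chromosome V (region 15320695 to 15321448), 1854 bp upstream of the nuclear hormone receptor gene nhr-247, with a germline score of 12880, and an intergenic site on chromosome X (region 1375031 to 1375468) near the F-box gene fbxa-190, with 12080. Of the 10 highest, 4 were on chromosome X, at summits 1375251, 2003054, 2058120 and 143424. Chromosome X held 35 of all 421 members (8.31%), and the difference for these 10 was not tested. The pair of the 10 near a gene start shared 1 region of chromosome I (13231046 to 13231835) upstream of ZK1053.2, with a germline score of 9238. Sites without a gene start within 1000 bp made up 268 of all 421 members (63.7%) and 83 of the 105 in the highest quartile of peak score, so 8 of 10 is close to the share of strong members.

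Several summits could share 1 region and hence 1 germline score. The 421 summits lay in 380 regions, of which 357 held 1 summit and 23 held more, with 64 summits in all. The widest region ran over 8228 bp of chromosome V (7916876 to 7925103), held 11 shared summits with peak scores from 13705 to 70728 and had a germline score of 7017. A region of 4832 bp on chromosome IV (14476320 to 14481151) held 8 summits, 6 shared and 2 germline-only, and scored 252. In 10 regions, shared and germline-only summits stood together (27 members). The highest score of a germline-only site, 1747, came from such a region on chromosome III (424609 to 427647), where a stronger shared summit had a peak score of 16624 and the 2 germline-only summits had 648 and 367. For such sites the score is that of the region and not of the germline-only summit.

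The position of the members was compared with that of the other summits and between the 2 lists by Fisher's exact test (two-sided), with the 8 p-values of this exact test adjusted together by the Benjamini-Hochberg method. Each chromosome was divided into 3 parts of equal length between its outermost genes, of which the first and last are the outer parts. The p-values cover the sampling of summits and not of animals. Members were more often in the outer parts of a chromosome than other summits were, 333 of 421 (79.1%) against 47 of 79 (59.5%), a difference of 19.6 percentage points (exact test, adjusted p = 0.00378). Members also more often had another common summit within 5000 bp, 159 of 421 (37.8%) against 17 of 79 (21.5%; exact test, adjusted p = 0.0268). Neighbouring summits in 1 region share 1 call, and this test treats them as independent. Each cluster could not be counted once for this share, so its p-value is only a rough guide. The outer parts of the worm's autosomes are known as chromosome arms and are rich in repeats and poor in essential genes. Both differences were between strong members and weak other summits. Only 5 of the 79 other summits reached the median peak score, where the differences were -4.49 and 7.35 points (exact test, adjusted p = 1 for each), so that membership and peak score cannot be told apart here.

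By the annotation, 292 members (69.4%) were intergenic, close to the 344 of all 500 common summits (68.8%), 112 intronic, 10 in a 5′ UTR, 5 in a 3′ UTR and 2 in a coding exon. By chromosome, I held 49 members, II 62, III 56, IV 117, V 102 and X 35. The share on X, 8.31%, against 12.7% of the other summits, did not pass the exact test (difference -4.34 points, adjusted p = 0.234). The median germline score was highest on X (304) and ran from 119 to 199 on the autosomes. Peak scores were highest on X too (median 1171, against 405 to 1079). Clustered members had a median germline score of 252 and single ones 117, with median peak scores of 1171 and 432.

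Of the members, 153 (36.3%, and 80.5% of the 190 common summits so placed) lay within 1000 bp of the start of a protein-coding gene (TSS), against 37 of the other 79 summits (46.8%). The difference of -10.5 points did not pass the exact test (adjusted p = 0.160). As a scale for these shares, 41.2% of all positions between the outermost genes lie within 1000 bp of such a start, so a member near a gene is not by that fact placed there more often than any base would be. Germline-only members were near a gene start more often than shared ones, 77 of 179 (43.02%) against 76 of 242 (31.4%; difference 11.6 points, exact test, adjusted p = 0.0487). The lists did not pass the exact test for the share in outer parts (6.24 points higher in germline-only members, adjusted p = 0.194), with another summit within 5000 bp (-10.3 points, adjusted p = 0.0662) or on X (-0.856 points, adjusted p = 0.859). The gene-start difference was lost when gene starts within 2000 bp were counted (4.63 points, exact test, adjusted p = 0.428), and among sites at or above the median peak score it was -1.99 points (exact test, adjusted p = 1).

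Of the 153 members near a gene, 115 (75.2%) were upstream of the nearest start, as were 31 of the 37 other summits near a gene (83.8%). The members lay at a median signed distance of -202 bp, and 78 were within 300 bp. In 56 cases more than 1 gene started within 1000 bp, for example in a divergent pair, and the data do not tell which gene the site belongs to. The build of the deposited coordinates was not given in the sources used here. Genes come from the WBcel235 annotation, and the match rests on a check with chaperone genes: of 90 such genes, 17 had a common summit within 300 bp with the coordinates as deposited, 7 and 9 after a shift of every summit by -500 and 500 bp, and 0 and 1 after a shift of -5000 and 5000 bp. Over all members the same check did not separate the deposited coordinates (78 within 300 bp) from the moved ones (67 and 76 at 500 bp), so single gene assignments away from the chaperone genes are less certain.

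**Figure D3:**
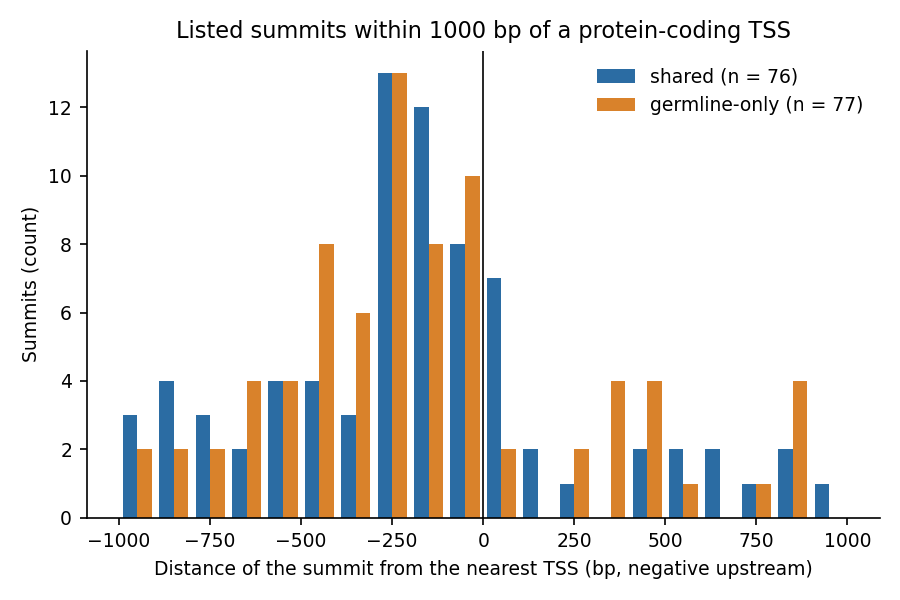
Signed distance in bp from the nearest protein-coding TSS (horizontal axis, negative upstream, bins of 100 bp) of the 153 members within 1000 bp of one, as counts of summits for the shared and germline-only lists. Both lists peak upstream, with 56 of 76 shared and 59 of 77 germline-only summits on that side.

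Members near genes had lower germline scores than the rest, with a median of 77.8 (n = 153) against 249 (n = 268). The members near genes also had lower peak scores (median 282 against 981). In the highest quartile of the members by peak score the medians were 494 near genes (n = 22) and 1580 elsewhere (n = 83), at median peak scores of 4788 and 12433. In the lowest quartile they were 39.8 and 49.6. The gap was thus widest among the strong sites.

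A total of 210 protein-coding genes had a member within 1000 bp of a start (1.05% of 19973). Shared members stood near 110 of them (0.551%) and germline-only members near 104 (0.521%), with both kinds near 4. In 20 lists of genes by function, 59 of 944 genes had one. The share was highest for HSP90 and its co-chaperones (5 of 11 genes), small heat shock proteins (7 of 16) and HSP70 (4 of 11). Counted only among genes with any common summit, these shares were 5 of 5, 7 of 7 and 4 of 6. For germline development and oocyte genes it was 4 of 4, and for DNA replication genes 0 of 1. Of all common summits near a gene start 80.5% were members, so the list counts mostly give which genes had a summit. Together, 6 chaperone lists held 90 genes, of which 25 had a member, through 20 sites, and 19 of these sites were shared. In contrast, 5 lists of germline functions held 153 genes, of which 11 had a member, through 10 sites, and 7 of these were germline-only. Of all 153 members near genes, 77 (50.3%) were germline-only, and weak sites were so more often than strong ones. The grouping into these 6 and 5 lists was made after their values had been seen, and the chaperone and germline genes were of interest from earlier work on the same data, so the counts are a description.

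The chaperone sites had low germline scores for their peak scores. Their peak score had a median of 919 (165 to 25068), with 9 of the 20 under the median of all members, and was above the 282 of all 153 members near genes, while their germline score had a median of 64.6 (16.07 to 458), below the 77.8 of the 153. The germline score per unit of peak score had a median of 0.0541 at chaperone sites and 0.279 over the 153. In 19 of 20 chaperone sites the germline score was below the median of all members in the same quartile of peak score, as it was in 91 of the 153 (59.5%). Ranked within the 153 alone, 17 of 20 were below it.

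HSP70 chaperones fold and refold client proteins with ATP. The site shared by F44E5.4 and F44E5.5, a divergent pair of near-identical heat-inducible HSP70 genes on chromosome II (region 11759145 to 11759807, summit 169 and 182 bp upstream of the starts), had a peak score of 25068, a germline score of 75.4 and a soma score of 807. Its ratio of germline to peak score, 0.0030, was the lowest of all members. Upstream of hsp-1, the constitutive cytosolic HSP70, the summit 421 bp from the start had a peak score of 21243, a germline score of 458 and a soma score of 205. This was the highest germline score of the chaperone lists, yet it ranked 17th from the bottom among the 105 members of the highest quartile of peak score, which runs from 2541 to 234251. The site between hsp-110, which exchanges the nucleotide of HSP70, and the proteasome subunit gene rpn-3 had a peak score of 3542 and a germline score of 84.0.

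The small heat shock proteins hold unfolding proteins in solution without ATP. Their genes hsp-16.1 and hsp-16.48 occur in duplicate copies on chromosome V, and reads of the copies may not be told apart. The 2 sites between them had germline scores of 38.8 and 41.4, peak scores of 2667 and 2541 and soma scores of 113 and 114.9. The site between hsp-16.2 and hsp-16.41 had a germline score of 24.3 and a soma score of 19.8. The exception was sip-1, which encodes a small heat shock protein of oocytes and embryos. Its site had a peak score of 165 and a germline score of 90.5, ranked 89th of 106 in its quartile and was the 1 chaperone site above the median. That summit was 738 bp downstream of the start of sip-1, with urm-1, taf-11.3 and sly-1 starting within the same 1000 bp.

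HSP90 matures kinases and receptors with the help of co-chaperones. The site 356 bp upstream of hsp-90 had a peak score of 4496, a germline score of 152 and a soma score of 81.0. Among its co-chaperones, the germline scores were 61.2 for sti-1, which links HSP70 to HSP90, 54.6 for the ATPase activator ahsa-1, 68.0 for sgt-1 and 27.1 for the immunophilin fkb-6. For fkb-6 the soma score, 40.8, was the higher. All 5 sites of this list were shared.

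The CCT chaperonin, a barrel that folds actin and tubulin, had 4 sites. Their germline scores were 111 for cct-3, 77.8 for cct-8, 75.7 for cct-5 and 16.07 for cct-7. The cct-5 site was the 1 germline-only site of the 6 chaperone lists. J-domain proteins deliver clients to HSP70, and their genes had some of the lowest ratios among strong sites. The dnj-13 site had a germline score of 46.4 at a peak score of 5080, dnj-12 had 38.6 at 2940 and dnj-19 had 23.8 at 446, and the soma score exceeded the germline score in all 3. In the mitochondrial list, the site between hsp-60 and Y22D7AL.10 scored 176 at a peak score of 2995. The mitochondrial HSP70 gene hsp-6 had a site that was in the soma list alone and so was no member.

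Germline function genes had the opposite profile of scores. Their 10 sites had a median germline score of 205 (31.3 to 740) at a median peak score of 460, so their germline score was above and their peak score below that of the chaperone sites. The germline score per unit of peak score had a median of 0.512 (0.286 to 0.961). In 9 of 10 sites the germline score was above the median of its quartile, as it was in 62 of the 153 members near genes. Only 3 of the 10, those of csr-1, hrde-1 and glh-1, had a soma score at all, against 76 of the 153. At each of them the germline score was the higher, as it was at 227 of all 242 shared sites.

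**Figure D4:**
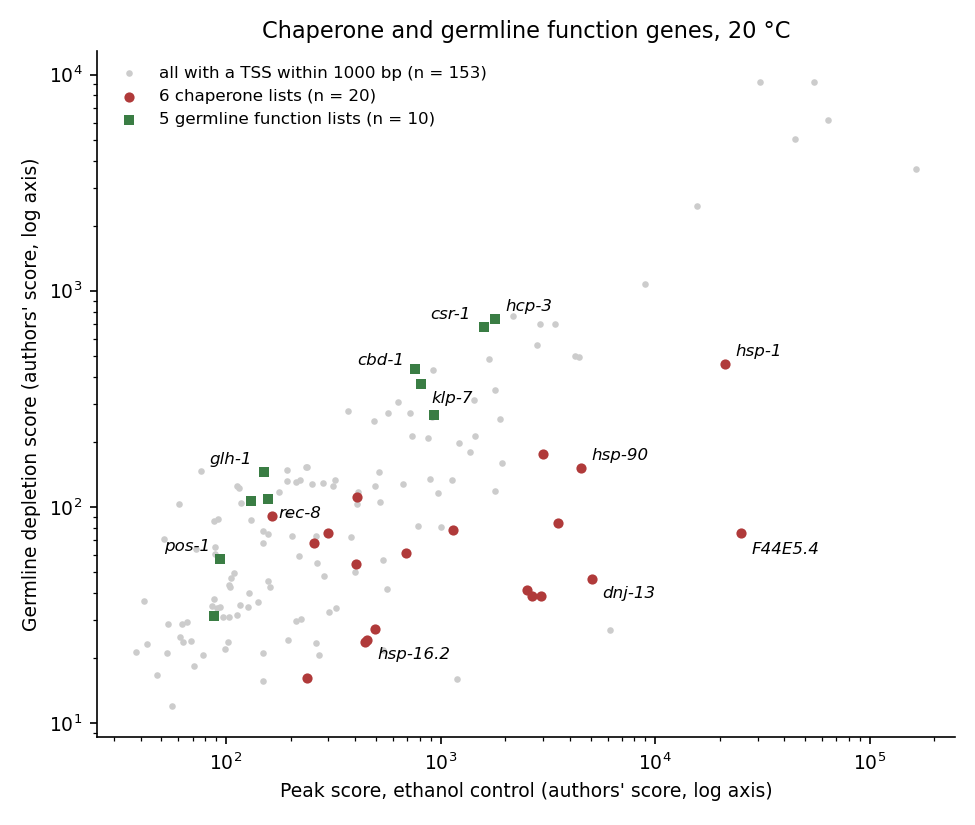
Germline score (vertical, log axis) against peak score (horizontal, log axis) of the 153 members within 1000 bp of a protein-coding TSS (grey), with the 20 sites of the chaperone lists (red circles) and the 10 sites of the germline function lists (green squares). Against the median germline score of all members in the same quartile of peak score, 19 of 20 chaperone sites are lower. Of the germline function sites, 9 of 10 are higher. Examples are F44E5.4 at 75.4 and hcp-3 at 740, and the exceptions are sip-1 and cpar-1. Some sites of each group rank near the middle of their quartile, such as cct-3 (49th of 105) and hrde-1 (61st of 105).

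Among the P granule and small RNA genes, 3 of 25 had a member and all 3 were shared. The Argonaute gene csr-1, whose product protects germline transcripts, had a site 264 bp upstream with a germline score of 677, a soma score of 29.8 and a peak score of 1603. The site upstream of hrde-1, the nuclear Argonaute of heritable silencing, had 265, 23.0 and 929. That of glh-1, a Vasa-like helicase of P granules, had a germline score of 144 at a peak score of 150, the highest ratio of the group, and lay in the 5′ UTR, 56 bp downstream of the start.

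Chromosome segregation and oocyte genes had germline-only sites. The site 638 bp upstream of hcp-3, which encodes the centromeric histone CENP-A, had the highest germline score of any germline-only site near a gene start (740, peak score 1800). Its paralog cpar-1 had 31.3 at a peak score of 88.2. A site 898 bp upstream of a start of klp-7, the microtubule-depolymerising kinesin of the spindle, and inside an intron of klp-7 by the annotation, had 370 at a peak score of 814. The site of cbd-1, an eggshell protein, 202 bp upstream and shared with the COPII gene sec-31, had 435 at 763 and the highest ratio, 0.570, among the 61 members near genes with a peak score at or above the median. The eggshell chitin synthase gene chs-1 had 106 at 131, and pos-1, which encodes a maternal RNA-binding protein, had 57.1 at 94.1. A single site between rec-8, the meiotic cohesin, and mex-5, a regulator of embryonic polarity, had 109 at 157. In the DNA replication list 1 of 24 genes had a common summit, which was no member.

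In the list of HSF-1 and its regulators, 3 of 7 genes had a common summit and 2 had a member, with unlike scores. Between hsb-1, which encodes an HSF-1-binding negative regulator, and let-99 lay a site with a germline score of 304, a soma score of 14.9 and a peak score of 632. Its summit was nearer to the start of let-99 (217 bp) than to that of hsb-1 (399 bp). The site of bag-1, an HSP70 nucleotide exchange factor, had 41.5 on germline depletion and 43.95 on soma depletion. In the ubiquitin and proteasome list, the site 506 bp upstream of rpn-2, a base subunit of the proteasome, had 762 at a peak score of 2182. The ubiquitin gene ubq-1 had 272 at 723, from a summit 940 bp upstream of its start. A nearer summit, 100 bp upstream of ubq-1, was in the soma list alone (peak score 113, soma score 16.6) and was no member. The E1 enzyme gene uba-1, germline-only, had 133 at 322. The ratios of germline to peak score were 0.349 for rpn-2, 0.376 for ubq-1 and 0.413 for uba-1. That of the fourth member site of the list, the one rpn-3 shares with hsp-110, was 0.0237.

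Translation genes had mostly weak germline-only sites. Of 80 ribosomal protein genes 5 had a member, 4 of them germline-only, with germline scores from 15.7 (rpl-20) to 129 (rpl-31). The nascent-chain complex genes icd-1 and icd-2 had 57.0 and 30.9, and the elongation factor gene eef-1A.1 had 20.6. Of 72 histone genes 5 had a member through 2 germline-only sites, near his-5, his-6 and his-39 (77.6) and between his-67 and his-68 (28.8), and histone gene copies are near-identical. The nuclear hormone receptor list had 3 of 269 genes with a member (1.12%) and the F-box A list 1 of 170 (0.588%), close to or below the 1.05% of all genes. The 18 vitellogenin and intestinal genes and the 19 muscle genes had no common summit within 1000 bp of a start, so a loss could not be recorded there.

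At the 242 shared sites the scores of the 2 depletions could be set side by side. The germline score was the higher at 227 of them and the soma score at 15. The median germline score was 341 and the median soma score 30.6, and their ratio had a median of 13.4 (0.0934 to 91.7). The scores come from different strains and libraries and are not on 1 scale, so the count of 227 does not show that more HSF-1 was lost in the germline. The count of sites with the higher soma score depends on the same offset. Of the 15 sites with the higher soma score, 13 were near a gene start, although such sites made up 76 of the 242. The ratio had a median of 3.33 near gene starts and 15.5 elsewhere (n = 166).

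**Figure D5:**
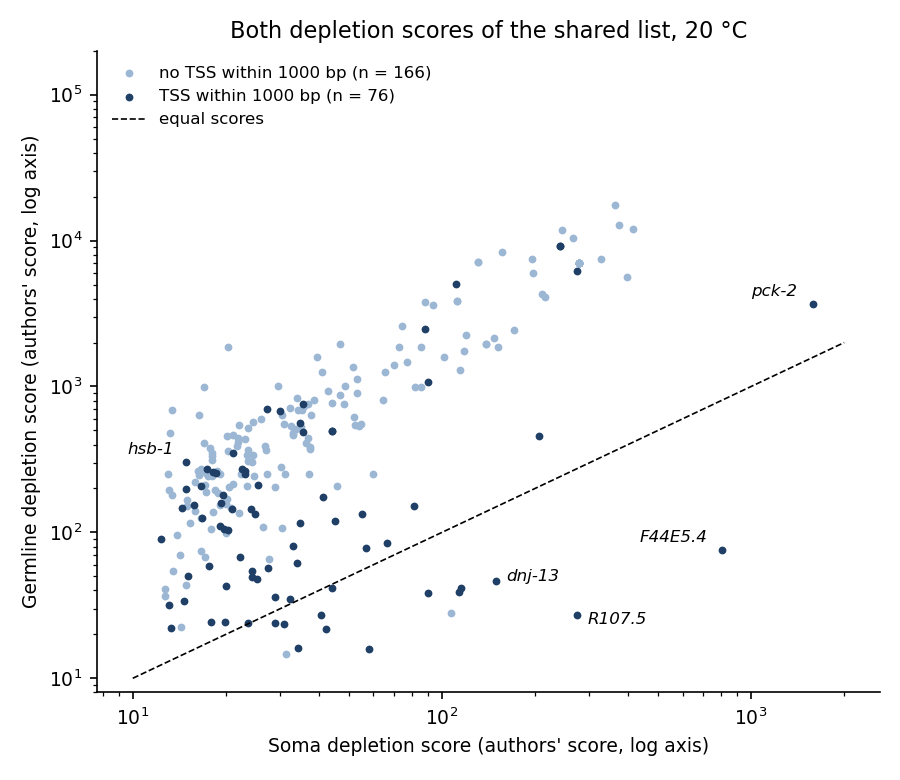
Germline score (vertical, log axis) against soma score (horizontal, log axis) of the 242 shared sites, with and without a protein-coding TSS within 1000 bp. Below the dashed line of equal scores lie 15 sites, among them F44E5.4 (75.4 and 807), R107.5 (26.9 and 273) and dnj-13 (46.4 and 150).

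The 15 sites included 8 of the 20 chaperone sites, which were F44E5.4 with F44E5.5, both hsp-16.1 sites, dnj-12, dnj-13, dnj-19, fkb-6 and cct-7, and also bag-1. Others were near R107.5, which had a germline score of 26.9 at a peak score of 6193, the lowest germline score in the highest quartile of peak score. The site of tent-5, which encodes a poly(A) polymerase, in its 5′ UTR had 16.0 and a soma score of 58.2. The co-activator gene mbf-1, shared with nse-4, had 21.7 and 42.2, and the chromatin remodeller gene nurf-1 had 23.4 and 30.8. The remaining 2 had no gene start within 1000 bp and were nearest to vab-10 and mrpl-51. By contrast, pck-2, which encodes phosphoenolpyruvate carboxykinase, had high scores on both sides, 3655 and 1589, at a peak score of 163945 and a summit in its 5′ UTR.

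Other strong members near genes included col-52, a cuticle collagen gene, with a germline score of 6152 and a soma score of 273, and C53C11.4, with 5012 and 111. In the germline-only list the highest scores near genes after hcp-3 were those of Y54B9A.1 (704, from a region that also held a shared summit), cbd-1 and sec-31, F01G4.4 with the helicase gene skih-2 (431), and klp-7. No source used here gave the authors' score threshold. The lowest germline scores of all were 12.0 near T08G5.3, 14.6 near mrpl-51, 15.7 at rpl-20, 16.0 at tent-5 and 16.07 at cct-7. Sites outside the lists have no germline score in the files, so the values just outside the threshold cannot be given.

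Many of the members were listed again in animals of the same strains heat-shocked at 34 °C for 30 min, where the authors made the same comparisons. A region of 1 of the 3 heat shock lists overlapped 327 of the 421 members. Of these, 241 were in the shared list after heat shock, 51 in the germline list and 35 in the soma list, and 94 members were in no list. The share listed again for germline depletion, in the shared or germline list, rose with the score at 20 °C. In quartiles of the germline score it was 34 of 106 (32.1%), 63 of 105 (60%), 94 of 105 (89.5%) and 101 of 105 (96.2%). The members so listed had median peak scores at 20 °C of 124, 326, 1085 and 8811 in these quartiles. Germline score and peak score therefore cannot be told apart here. Neither the 327 nor this share was counted for the other 79 summits, so both stand without a share over all 500.

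The gene groups differed in this respect too. Of the 20 chaperone sites, 13 (65%) were listed for soma depletion alone after heat shock, 3 were shared (hsp-1, dnj-13 and the site of hsp-110 and rpn-3) and 4 were in no list. Among all 153 members near genes, 31 (20.3%) were listed for soma depletion alone and 73 (47.7%) were in no list. None of the 10 sites of germline function genes was in any heat shock list. At 3 of these 10 a common heat shock summit lay within 100 bp, against 16 of the 20 chaperone sites and 91 of the 153, so 7 of the 10 had no such summit. These are the same sites and a second condition, with control animals of the same strain but other libraries.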

How the data were processed

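ChIP-seq with an antibody against GFP was compared between ethanol and auxin in the germline TIR1 strain at 20 °C (2 libraries each). Reads were processed with Bowtie2 and MACS2, per the submitters' processing notes, with no version given. The peak scores and differential scores are used as the authors deposited them. The differential score is headed as a negative log p-value, per the file headers, and region names follow MACS2's differential caller with ethanol as the first condition. File descriptions in the labels name combined pileups for each condition, and no value per library was used or could be. Their scaling was not given in the sources used here, so it could move all scores of a comparison together.

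Distinct rows of the 2 lists were matched to the common summits by name. Positions were counted from 1. Distances to protein-coding starts used Ensembl release 115 (WBcel235) within 1000 bp. Clusters were summits within 5000 bp. Outer parts were the first and last of 3 equal lengths between the outermost genes. Fisher's exact tests, correlations and intervals used scipy 1.17.1 in Python 3.11.15 with pandas 2.3.3 and numpy 2.4.6, and the position functions were tested on simulated data. Adjusted p-values under 0.05 were called. Genes were named by rank of germline score or of its ratio to peak score, or by a function list, with the highest germline-only scores and the sites of higher soma score added after their values were seen. Members and lists were chosen with earlier results of these data known. Alternatives changed the distances, score thresholds and unit counted.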

Additional observations from a re-analysis of the deposited data

How the results depend on the processing

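No paired analysis was possible because the files hold no values per library, and for the same reason no replicate was left out; a search for heat shock elements was not run because no sequence was used here. Of the position tests, the higher share of members in outer parts and the clustered share kept their call under every distance. They also did so with the lowest quartile of germline score left out. The germline score belongs to the call of membership and the other summits were not cut, so leaving out that quartile is no independent check. The share in outer parts also kept its call with each cluster counted once. That alternative was not available for the clustered share, whose summits are not independent. With sites at or above the median peak score, 245 members and 5 other summits remained, and the differences were -4.49 points for outer parts, 7.35 for clustered sites and, between germline-only and shared members, 7.45 for clustered sites (-10.3 over all sites) and -1.99 for gene starts (Fisher's exact test, adjusted p = 1 for each). The gene-start difference between the lists was 4.63 points at 2000 bp (exact test, adjusted p = 0.428). Members with a germline score at or above the lower quartile were near gene starts less often than other summits (-19.3 points, exact test, adjusted p = 0.00446). This cut was made on the members alone, and members near genes had lower germline scores (median 77.8 against 249). It left 87 of 316 members near a gene start, against 153 of 421 before, so this test cannot decide on position. Germline-only minus shared members in outer parts was 10.9 points with chromosomes cut into 4 parts (exact test, adjusted p = 0.0477) and -0.74 with each cluster once (exact test, adjusted p = 0.890), against 6.24 points in the main test (adjusted p = 0.194). The cause of the other shifts was not tested. The correlation of germline and peak score was 0.773 in germline-only members and 0.635 near gene starts. Chosen after seeing the data, counting gene starts within 500 bp put 17 of 17 chaperone sites (100%) below the median of their quartile (19 of 20, 95%, at 1000 bp). The exception at 1000 bp, sip-1, has its summit 738 bp from the start and was no longer counted. In the same setting 7 of 8 germline function sites were above the median (9 of 10 at 1000 bp). Ranked within the members near genes alone, 85% of chaperone sites were below it. Of 53 alternative values, 41 kept their direction and call, stayed within their interval or, for counts, stayed within a factor of 1.5. By this wide factor 316 regions counted as unchanged against 421. With no depth or spread known, differences between single scores have no error.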
